A study of Mus musculus with 6 samples.

Results

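The DNA replication and G1/S genes are 43 of the 56748 genes measured, and they were taken by name, as genes known to license and fire origins, copy DNA, supply deoxynucleotides, drive entry into S phase and rebuild chromatin behind the fork. The study sequenced RNA from wild-type 4T1 cells, which come from a mouse mammary carcinoma, in 3 treated and 3 control samples collected at 48 h. Treated cells had grown for 24 h, received Au/MoS2/Bi2S3 particles at 125 µg/mL overnight and near-infrared light (NIR) for 8 min, and were cultured for a further 24 h. Control cells are given in the labels only as the control group, so particles and light changed together, and cells given particles alone or light alone were not analysed here. The labels give all 6 samples 1 batch label and describe the RNA as pooled from cells of 3 individuals. Separate cultures are not stated, so p-values reflect the spread between samples, and that spread may be technical.

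A replication origin is licensed in G1, when the origin recognition complex, Cdc6 and Cdt1 load rings of MCM2-7, the core of the replicative helicase. At the start of S phase, kinases recruit Cdc45 and the GINS complex to these rings, and polymerase alpha-primase, delta and epsilon then copy the strands with the sliding clamp Pcna, its loader RFC and the ligase Lig1. Many of these genes are known targets of E2F transcription factors, which are released when cyclin-dependent kinases phosphorylate the retinoblastoma protein, and cyclin E is the cyclin of the S-phase entry kinase Cdk2.

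The RefSeq promoter table (GRCm38.p6) held a window from 250 bases before to 50 bases after the start for 34 of the 43 genes. E2F-type 8-base motifs, searched as TTTCCCGC, TTTGGCGC, TTTCGCGC and TTTGCCGC on both strands, were present for 14 of these 34 genes (41.2%), and for 704 of all 27025 genes in the table (2.6%). The windows were not matched for base composition, and a match is a description of letters, not a site shown to be bound. One promoter is shown for a gene that was higher in treated cells (Gins3), one for a gene that was lower (Lig1) and one for a gene that was not called (Mcm6), each 5′ to 3′ on the strand of its gene, with the motif letters in capitals. The windows are chr8:95633309-95633608 on the plus strand for Gins3, chr7:13278576-13278875 on the plus strand for Lig1, whose table lists other starts as well, and chr1:128359656-128359955 on the minus strand for Mcm6.
Gins3: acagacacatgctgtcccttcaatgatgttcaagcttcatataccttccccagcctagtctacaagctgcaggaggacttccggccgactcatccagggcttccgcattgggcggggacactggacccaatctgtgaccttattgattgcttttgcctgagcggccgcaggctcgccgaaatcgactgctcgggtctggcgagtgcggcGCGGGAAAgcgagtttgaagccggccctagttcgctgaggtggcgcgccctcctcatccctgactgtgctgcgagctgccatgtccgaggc
Lig1: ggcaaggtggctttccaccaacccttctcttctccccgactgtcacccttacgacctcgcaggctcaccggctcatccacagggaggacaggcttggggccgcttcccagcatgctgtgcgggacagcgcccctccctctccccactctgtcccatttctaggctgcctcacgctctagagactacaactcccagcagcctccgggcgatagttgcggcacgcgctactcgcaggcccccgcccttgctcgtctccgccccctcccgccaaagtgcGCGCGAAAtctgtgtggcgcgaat
Mcm6: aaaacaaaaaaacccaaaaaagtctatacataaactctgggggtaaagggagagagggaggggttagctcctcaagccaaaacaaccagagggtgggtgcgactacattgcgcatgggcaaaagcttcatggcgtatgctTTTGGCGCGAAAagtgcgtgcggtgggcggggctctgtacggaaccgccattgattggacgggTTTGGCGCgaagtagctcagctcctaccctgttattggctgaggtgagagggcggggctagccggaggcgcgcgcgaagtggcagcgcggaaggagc
The first 2 of the 3 Mcm6 matches overlap, 1 on each strand. Genes with a motif were found in every class of response, 2 of 8 among the higher genes with a promoter in the table, 3 of 5 among the lower ones and 9 of 21 among those not called.

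The deposited values are FPKM, fragments scaled to exon length and library size, already adjusted by the authors so that the typical gene had the same level in every library. A gene is therefore called higher or lower relative to the typical gene, at an adjusted p under 0.05 in limma on log2(FPKM + 1). Reads at genes, worked back from the steps of the low values, were 33.8, 33.4 and 33.2 M in the treated libraries and 38.1, 37.8 and 32.6 M in the control libraries. The epithelial keratins Krt8, Krt18 and Krt19 were above 100 FPKM in every library and were called lower in treated cells, at means of 351, 286 and 126 FPKM in treated and 480, 861 and 512 FPKM in control cells, while Epcam stood at 0.760 to 0.968 FPKM in treated and 4.43 to 5.74 FPKM in control cells, and Cdh1 and Krt14 were near 0. Of the 5 leukocyte markers reported, Ptprc, Adgre1, Cd3e and Lyz2 were at or near 0 in all libraries, and their summed level with Cd68 was 242 to 260 FPKM in treated and 77.0 to 444 FPKM in control cells. The 6 endothelial and fibroblast markers summed to 31.8 to 34.7 FPKM in treated and 115 to 758 FPKM in control cells, nearly all of it Col1a1. Over the 6 libraries Cdh5 had 0.699 to 1.46 FPKM, Pdgfra 1.01 to 1.29 FPKM and Pdgfrb 0.508 to 1.17 FPKM, while Pecam1 and Kdr were near 0. The part of all these markers in the results below was not tested.

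Of the 43 genes, 42 passed the filter of 1 FPKM in at least 3 libraries. Among these, 10 were higher in treated cells (Orc1, Gins3, Mcm10, Pole, Pcna, Rfc5, Ccne2, E2f1, E2f8 and Chaf1b), 6 were lower (Cdt1, Gins2, Lig1, Ccne1, Uhrf1 and Slbp) and 26 were not called. The 16 called genes are 38.1% of those tested, under the 56.1% of all 11118 tested genes that were called (27.9% higher, 28.3% lower). The genes did not move as a block: their median log2 fold change was 0.12, against -0.01 for all genes tested, and single genes ranged between -1.20 for Lig1 and 1.31 for E2f8. The values of treated and control libraries did not overlap for 24 of the 42 genes (14 above, 10 below), a share of 57.1% beside 67.7% of all genes tested (33.6% above, 34.1% below). Of 56 other replication genes, listed by role, 54 were tested, of which 16 were higher and 9 lower (46.3% called). In bulk RNA a different share of cells in S phase and a different amount of RNA per cell cannot be told apart.

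**Figure D1:**
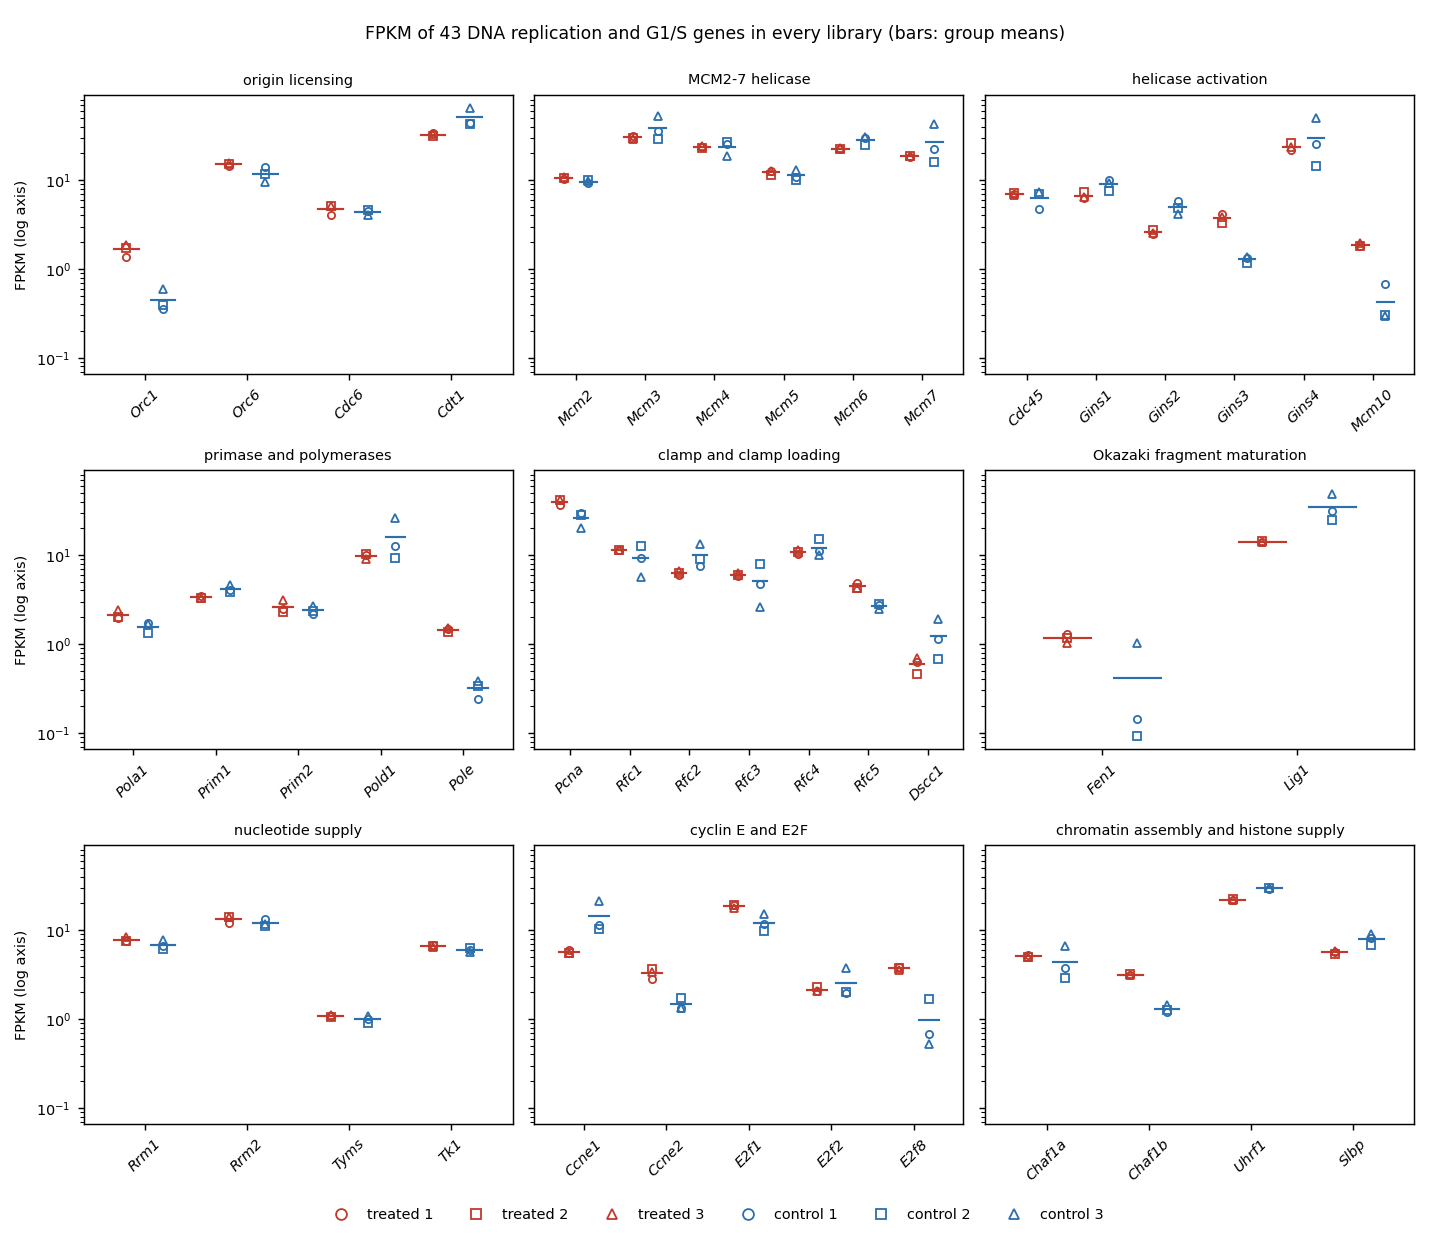
FPKM on a log axis of the 43 genes in each library, by role, with treated libraries in red on the left and control libraries in blue on the right of each gene, 1 marker shape per replicate number and bars at the group means. The treated libraries lie close together for most genes, and Orc1, Mcm10, Pole and E2f8 show wide gaps upward, Lig1 and Ccne1 downward.

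Of the licensing genes, the 2 that were called moved in opposite directions. Orc1, the largest subunit of the origin recognition complex (chr4:108579423-108614833 in GRCm38), had 1.36, 1.74 and 1.87 FPKM in treated libraries, against 0.358, 0.390 and 0.601 FPKM in controls. Each treated library lay above all controls, and the means of 1.66 ± 0.264 FPKM in treated and 0.450 ± 0.132 FPKM in control cells (SD, n = 3 each) differed 3.68-fold (log2 fold change 0.87 ± 0.12 SE, limma adjusted p = 0.00161). With the trend on GC content, length and level removed, the log2 fold change of Orc1 was 0.28 and the call was lost (limma adjusted p = 0.0835). The level was low in controls, where Orc1 rested on 39 to 49 reads a library, beside 213 to 288 in treated ones.

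Cdt1, which delivers MCM2-7 to the origin, had 33.5, 31.0 and 32.6 FPKM in treated libraries, against 44.3, 42.8 and 64.6 FPKM in controls. All treated values were below all controls, with a log2 fold change of -0.60 ± 0.18 SE (limma adjusted p = 0.0287), but the difference turned to 0.032 with quantile normalization, 0.059 with the trend on GC content, length and level removed, 0.13 by library size only and 0.37 with equal column totals. Its adjusted p without 1 treated library was between 0.0793 and 0.096 (limma). Cdc6, the ATPase that works with Cdt1, had 4.07 to 5.17 FPKM in treated and 4.01 to 4.56 FPKM in control cells and was not called (log2 fold change 0.10, 95% interval -0.19 to 0.39). Orc6, the smallest subunit of the recognition complex, had 14.5 to 15.4 FPKM in treated and 9.57 to 14.1 FPKM in control cells, without overlap and not called (limma adjusted p = 0.0948). Without control 1 its adjusted p was 0.0393 in the same test, and with quantile normalization 0.0208.

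Of the licensing genes outside the 43 genes, 6 were tested and 1 was called in each direction. Of all tested genes 27.9% were higher and 28.3% lower. Gmnn encodes geminin, the inhibitor that binds Cdt1 from S phase on. It had 19.0, 20.9 and 20.0 FPKM in treated libraries, against 50.8, 31.9 and 52.1 FPKM in controls, a log2 fold change of -1.10 ± 0.20 SE (limma adjusted p = 0.00521). Its call ended under equal totals (limma adjusted p = 0.539), library size only (0.105) and the trend removed (0.0924). Orc5, another subunit of the recognition complex, averaged 2.45 ± 0.140 FPKM in treated and 1.57 ± 0.118 FPKM in control cells (SD, n = 3 each), with log2 fold change 0.42 and limma adjusted p = 0.00916, but its change was -0.11 with the trend removed. The ratio of Cdt1 to its inhibitor within a library was 1.76, 1.48 and 1.63 in treated cells and 0.872, 1.34 and 1.24 in control cells, and both genes were lower in treated cells on the deposited scale.

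None of the 6 helicase ring genes was called in either direction at an adjusted p under 0.05 by limma, with 1 at an unadjusted p under 0.05. Scaling by library size only called 4 of them higher and equal totals 5, beside 54.3% and 64.6% of all tested genes. Mcm6 lay below the controls in every treated library, with 22.4, 22.6 and 22.8 FPKM in treated and 29.3, 25.0 and 30.2 FPKM in control libraries (log2 fold change -0.30, 95% interval -0.58 to -0.03, limma adjusted p = 0.061). Its adjusted p was 0.0129 without control 2. Mcm2 had 10.4 to 10.8 FPKM in treated and 9.17 to 9.92 FPKM in control cells, and lay above the controls in every treated library (log2 fold change 0.13, 95% interval -0.10 to 0.36). The other 4 genes overlapped between groups.

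Mcm7 had 17.9, 18.8 and 18.6 FPKM in treated libraries, against 22.1, 16.1 and 42.8 FPKM in controls, and was highest in control 3 (log2 fold change -0.41, 95% interval -1.22 to 0.40). Mcm3 was likewise highest in control 3, with 29.1 to 31.5 FPKM in treated and 28.8 to 51.9 FPKM in control cells. Mcm4 (log2 fold change 0.01, 95% interval -0.38 to 0.39) and Mcm5 (0.11, -0.20 to 0.42) had narrower intervals around 0. Within the ring, Mcm3 had the highest and Mcm2 the lowest FPKM in every library, and the 6 genes together summed to 118, 116 and 118 FPKM in treated and 132, 117 and 166 FPKM in control libraries.

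The GINS complex, a 4-subunit part of the active helicase, gave calls in both directions on the deposited scale, the lower one from Gins2 alone. Gins3 (chr8:95633453-95645060), whose promoter is printed above, had 4.16, 3.31 and 3.86 FPKM in treated libraries, against 1.33, 1.18 and 1.35 FPKM in controls. The groups were far apart, with means of 3.78 ± 0.435 FPKM in treated and 1.29 ± 0.0976 FPKM in control cells (SD, n = 3 each), a fold of 2.93 and a log2 fold change of 1.06 ± 0.11 SE (limma adjusted p = 0.000654).

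Gins2 had 2.47, 2.76 and 2.55 FPKM in treated libraries, against 5.83, 4.90 and 4.13 FPKM in controls. Every treated value was below every control, with a log2 fold change of -0.72 ± 0.13 SE (limma adjusted p = 0.00489). The call of Gins2 was lost with equal column totals (log2 fold change 0.058, limma adjusted p = 0.759) and by library size only (-0.14, 0.458). Of its exon bases, 67.3% lie in exons of Gse1 on the other strand. The strand setting of the counting is not given, so reads from that part cannot be told apart from those of Gse1. Gins1 had 6.28 to 7.34 FPKM in treated and 7.51 to 10.1 FPKM in control cells, without overlap and not called (limma adjusted p = 0.059, and 0.0117 without control 2). Gins4 overlapped, with 21.5 to 25.9 FPKM in treated and 14.4 to 50.2 FPKM in control cells (95% interval of the log2 fold change -1.17 to 0.85). Within GINS the lowest gene was thus Gins2 in all treated and Gins3 in all control libraries, and Gins4 was highest in all 6.

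Mcm10, a factor that activates the loaded helicase, had 1.83, 1.80 and 1.94 FPKM in treated libraries, against 0.673, 0.307 and 0.294 FPKM in controls. The treated values were tightly grouped and all above the controls, which differed among themselves, and the means of 1.86 ± 0.0714 FPKM in treated and 0.425 ± 0.215 FPKM in control cells (SD, n = 3 each) stood 4.37-fold apart (log2 fold change 1.01 ± 0.12 SE, limma adjusted p = 0.00116). Cdc45, which is recruited to the ring along with GINS, overlapped at 6.74 to 7.16 FPKM in treated and 4.78 to 7.29 FPKM in control cells (log2 fold change 0.14, 95% interval -0.25 to 0.52). Of 11 further tested genes of helicase activation, 7 were higher (Dbf4, Ticrr, Mtbp, Topbp1, Recql4, Donson and Wdhd1) and 0 were lower at an adjusted p under 0.05 by limma, nor was any lower at an unadjusted p under 0.05. Of all tested genes 27.9% were higher and 28.3% lower in the same fit. With quantile normalization 2 of the 11 were higher and 0 lower, beside 27.2% and 24.5% of all genes, and with the trend removed 2 were higher and 1 lower, beside 21.0% and 21.7%. The smallest p among them was that of Mtbp, partner of the firing factor Ticrr, with 3.50 ± 0.287 FPKM in treated and 1.27 ± 0.0495 FPKM in control cells (SD, n = 3 each, log2 fold change 0.98, limma adjusted p = 0.00055).

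**Figure D2:**
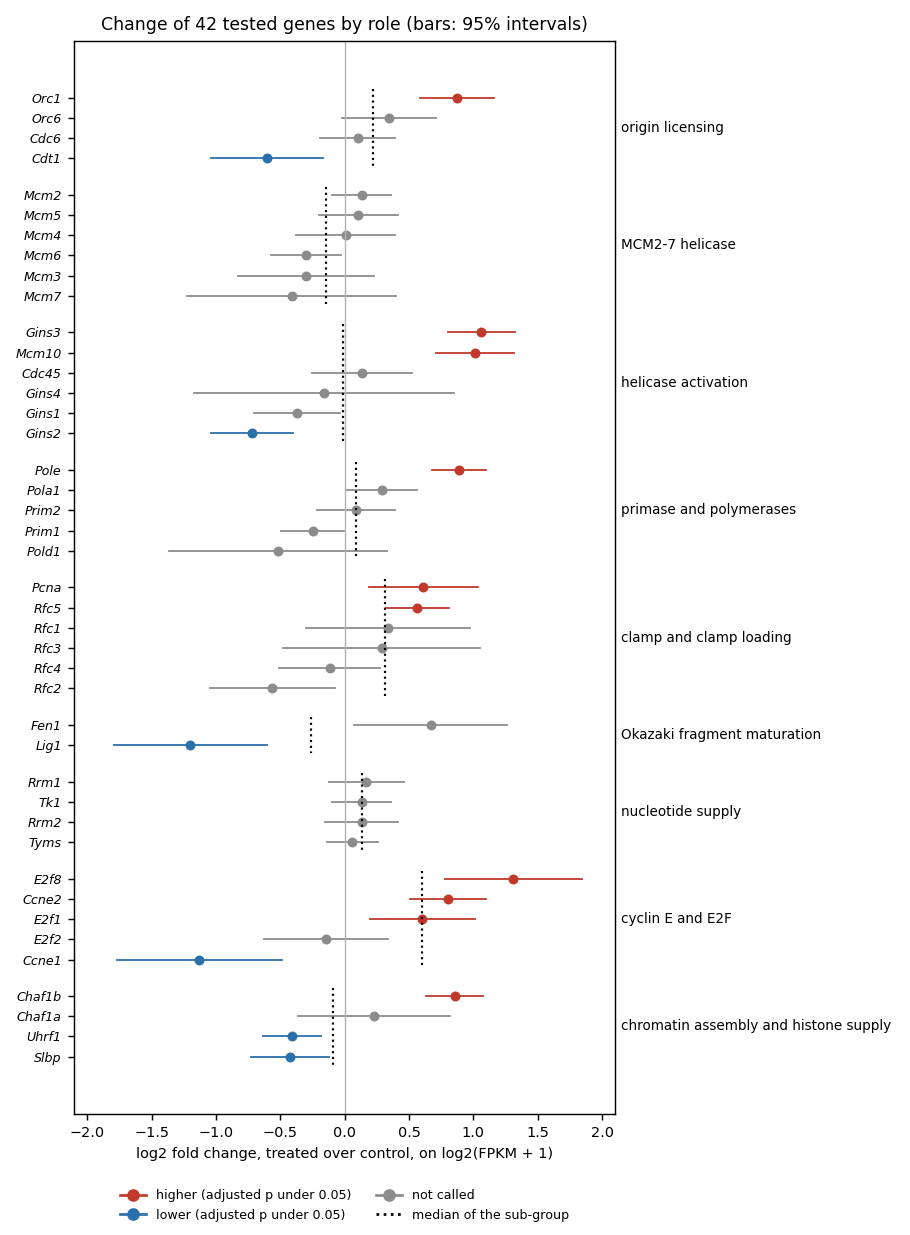
Log2 fold change, treated over control, on log2(FPKM + 1), of the 42 tested genes by role, with 95% intervals, red for higher, blue for lower and grey for not called, and dotted lines at the median of each role. The 6 MCM genes and the 4 nucleotide supply genes are all grey, and licensing, helicase activation, cyclin E and E2F, and chromatin hold both red and blue genes, though Cdt1, Gins2, Uhrf1 and Slbp, blue here, lie above 0 under at least 1 other scaling.

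Among the polymerases, the catalytic subunit of the leading-strand enzyme stood apart. Pole (chr5:110286306-110337474) had 1.48, 1.35 and 1.49 FPKM in treated libraries, against 0.243, 0.336 and 0.386 FPKM in controls. There was no overlap, and the means of 1.44 ± 0.078 FPKM in treated and 0.322 ± 0.0725 FPKM in control cells (SD, n = 3 each) differed 4.49-fold, the largest fold between means among the 16 called genes of the set (log2 fold change 0.89 ± 0.09 SE, limma adjusted p = 0.000556). Pold1, the catalytic subunit of the lagging-strand polymerase delta, had 10.1, 10.4 and 9.06 FPKM in treated and 12.5, 9.20 and 26.0 FPKM in control libraries and was not called (log2 fold change -0.52, 95% interval -1.36 to 0.33). The ratio of Pole to Pold1 within a library, which a single scaling factor per library leaves as it is, was 0.147, 0.131 and 0.165 in treated cells, against 0.0194, 0.0366 and 0.0149 in control cells.

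Pola1, the catalytic subunit of polymerase alpha, had 1.98 to 2.42 FPKM in treated and 1.32 to 1.72 FPKM in control cells and was not called (limma adjusted p = 0.0657, and 0.0486 without control 3). Prim1, the primase catalytic subunit, lay the other way at 3.29 to 3.50 FPKM in treated and 3.84 to 4.62 FPKM in control cells (limma adjusted p = 0.0848, and 0.0467 without control 2). It passed as higher by library size only (0.35) and equal totals (0.55), and as lower with quantile normalization (-0.44) and the trend removed (-0.59). Its partner Prim2 overlapped, with 2.29 to 3.10 FPKM in treated and 2.17 to 2.70 FPKM in control cells. Of 10 other tested polymerase and single-strand binding genes, 2 were higher and 3 were lower, beside 27.9% and 28.3% of all tested genes. With quantile normalization 3 were higher and 1 lower, beside 27.2% and 24.5% of all genes. With the trend removed 2 were higher and 0 lower, beside 21.0% and 21.7%. Pole3, a histone-fold subunit of polymerase epsilon, averaged 13.7 ± 1.14 FPKM in treated and 6.44 ± 0.386 FPKM in control cells (SD, n = 3 each, log2 fold change 0.98, limma adjusted p = 0.000859). Pold2, an accessory subunit of polymerase delta, averaged 41.2 ± 0.495 FPKM in treated and 92.1 ± 21.1 FPKM in control cells (SD, n = 3 each, log2 fold change -1.12, limma adjusted p = 0.00273), and was not called with quantile normalization (0.0691), the trend removed (0.455) or equal totals (0.388).

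Pcna, the sliding clamp, was the most abundant called gene of the set that was higher, with 36.6, 41.5 and 41.7 FPKM in treated libraries, against 29.7, 28.6 and 20.0 FPKM in controls. The groups did not overlap, and the means of 39.9 ± 2.85 FPKM in treated and 26.1 ± 5.33 FPKM in control cells (SD, n = 3 each) differed 1.53-fold (log2 fold change 0.61 ± 0.18 SE, limma adjusted p = 0.0253). The call ended without any 1 treated library, at an adjusted p between 0.0582 and 0.0897 by limma. Its processed pseudogene Pcna-ps2 was listed at under 1 FPKM in every library.

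Of the clamp loader genes, Rfc5 alone was called. It had 4.81, 4.30 and 4.23 FPKM in treated libraries, against 2.78, 2.80 and 2.47 FPKM in controls, so that the lowest treated value was above the highest control (log2 fold change 0.56 ± 0.10 SE, limma adjusted p = 0.00444). The call was lost with the trend on GC content, length and level removed (limma adjusted p = 0.0623). Rfc2 lay below the controls in all treated libraries, with 5.91 to 6.69 FPKM in treated and 7.57 to 13.3 FPKM in control cells, and just missed the threshold (log2 fold change -0.56, limma adjusted p = 0.0518). It passed at 0.0304 without control 1 and at 0.0277 without control 3. Rfc2 was called lower with quantile normalization (limma adjusted p = 0.0395), the trend removed (0.0405), a minimum of 5 FPKM (0.0494) and a weight per group (0.0386). Its log2 fold change was 0.33 with equal totals and 0.10 by library size only, without a call.

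The large subunit Rfc1 (11.3 to 11.4 FPKM in treated, 5.63 to 12.8 FPKM in control cells), Rfc3 (5.77 to 6.27 FPKM in treated, 2.64 to 8.00 FPKM in control cells) and Rfc4 (10.4 to 11.5 FPKM in treated, 10.0 to 15.1 FPKM in control cells) overlapped between groups and were not called. Without control 2, Rfc1 and Rfc3 passed (limma adjusted p = 0.0427 and 0.0447). Dscc1, part of an alternative loader that acts in sister chromatid cohesion, was under the filter at 0.633, 0.465 and 0.694 FPKM in treated and 1.13, 0.684 and 1.90 FPKM in control libraries and was not tested. None of 3 further tested clamp genes (Chtf18, Atad5 and Pclaf) was called by limma, with 0 at an unadjusted p under 0.05.

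Lig1, the ligase that seals Okazaki fragments (chr7:13277283-13311433), had 14.1, 14.3 and 14.0 FPKM in treated libraries, against 31.6, 24.6 and 49.1 FPKM in controls. The treated libraries were nearly equal and all below the controls, with means of 14.1 ± 0.123 FPKM in treated and 35.1 ± 12.6 FPKM in control cells (SD, n = 3 each) and a log2 fold change of -1.20 ± 0.24 SE (limma adjusted p = 0.0074), the lowest log2 fold change of the 42 genes on the deposited scale with a pseudocount of 1, while Ccne1 was lowest with quantile normalization and with the trend removed. The call was lost under both scalings by totals, where the change was -0.24 with equal totals and -0.49 by library size only.

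Fen1, the flap nuclease that trims the fragments before ligation, had 1.30, 1.18 and 1.02 FPKM in treated libraries, against 0.145, 0.0911 and 1.02 FPKM in controls. Controls 1 and 2 rested on 11 and 7 reads and control 3 on 58, and control 3 was level with treated 3. The gene was not called (log2 fold change 0.67, 95% interval 0.08 to 1.26, limma adjusted p = 0.057), and without control 3 its adjusted p was 0.000576. Of its exon bases, 78.8% lie in exons of the antisense gene Gm10143 and 5.37% in exons of Tmem258, which itself had 21.9 to 27.6 FPKM in treated and 2.94 to 90.2 FPKM in control cells, so the reads of Fen1 are uncertain. None of 3 further tested genes, the RNase H2 subunits, was called by limma, with 1 lower at an unadjusted p under 0.05.

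None of the 4 nucleotide supply genes was called at an adjusted p under 0.05 by limma, or passed at an unadjusted p under 0.05. All 4 were called higher under equal totals and by library size only, where 64.6% and 54.3% of all tested genes were higher. The large and small subunits of ribonucleotide reductase, Rrm1 at 7.46 to 8.29 FPKM in treated and 6.08 to 7.84 FPKM in control cells, and Rrm2 at 12.1 to 14.1 FPKM in treated and 11.2 to 13.3 FPKM in control cells, overlapped between groups. Their 95% intervals on the log2 scale reached 0.46 and 0.42 at the upper end and -0.13 and -0.15 at the lower, and without control 3 Rrm1 passed (limma adjusted p = 0.0402). Tyms, thymidylate synthase, had 1.06 to 1.11 FPKM in treated and 0.906 to 1.09 FPKM in control cells, and it was called lower with quantile normalization (-0.35) and with the trend removed (-0.52). Thymidine kinase Tk1 was above all controls, with 6.78, 6.69 and 6.51 FPKM in treated and 5.92, 6.32 and 5.71 FPKM in control libraries, but by an amount that did not pass (log2 fold change 0.13, 95% interval -0.09 to 0.36).

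Other genes of the same supply did pass, 4 higher and 2 lower of 8 tested, beside 27.9% and 28.3% of all tested genes. With quantile normalization 2 of the 8 were higher and 2 lower, beside 27.2% and 24.5% of all genes. With the trend removed 2 were higher and 2 lower, beside 21.0% and 21.7%. Rrm2b, the p53-inducible form of the small reductase subunit, had 1.95, 2.21 and 2.27 FPKM in treated libraries, against 0.248, 0.476 and 0.215 FPKM in controls. The lowest treated value was well above the highest control, at 6.85-fold between the means (log2 fold change 1.26, limma adjusted p = 0.000439). Within each library Rrm2b remained the smaller of the pair, with a ratio to Rrm2 of 0.161, 0.158 and 0.163 in treated and 0.0187, 0.0427 and 0.0182 in control cells. Shmt1, a folate enzyme of thymidylate synthesis, averaged 3.81 ± 0.153 FPKM in treated and 1.01 ± 0.168 FPKM in control cells (SD, n = 3 each, log2 fold change 1.26, limma adjusted p = 0.000372). Dut, which removes dUTP, averaged 27.9 ± 0.63 FPKM in treated and 90.1 ± 36.1 FPKM in control cells (SD, n = 3 each, log2 fold change -1.58, limma adjusted p = 0.00552, and 0.0692 with equal totals).

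The cyclin E genes moved in opposite directions. Ccne1 (chr7:38097984-38107534) had 6.01, 5.56 and 5.57 FPKM in treated libraries, against 11.4, 10.4 and 21.5 FPKM in controls. All treated values were below all controls, and the means of 5.71 ± 0.258 FPKM in treated and 14.4 ± 6.15 FPKM in control cells (SD, n = 3 each) gave a log2 fold change of -1.13 ± 0.26 SE (limma adjusted p = 0.0123). The log2 fold change stayed negative and did not pass under equal totals (-0.23) or library size only (-0.46).

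Ccne2 (chr4:11191351-11204779) had 2.83, 3.64 and 3.41 FPKM in treated libraries, against 1.33, 1.73 and 1.33 FPKM in controls. The groups lay apart in the other direction, 2.25-fold between the means (log2 fold change 0.80 ± 0.12 SE, limma adjusted p = 0.00251). Its adjusted p was 0.111 by limma after the trend on GC content, length and level was removed. Exons of Ints8 on the other strand cover 17.4% of its exon bases. The ratio of Ccne2 to Ccne1 was 0.471, 0.655 and 0.612 in treated and 0.116, 0.167 and 0.0619 in control libraries, so that Ccne1 had the higher FPKM in all 6.

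The E2F genes differed by member. E2f8, a repressor that is itself made in S phase, had 3.82, 3.75 and 3.57 FPKM in treated libraries, against 0.675, 1.69 and 0.525 FPKM in controls. Treated libraries were close together and above all controls, among which control 2 was highest, and the means of 3.71 ± 0.129 FPKM in treated and 0.964 ± 0.635 FPKM in control cells (SD, n = 3 each) stood 3.85-fold apart (log2 fold change 1.31 ± 0.22 SE, limma adjusted p = 0.00357). This was the highest log2 fold change of the 42 genes on the deposited scale with a pseudocount of 1, while Pcna was highest with quantile normalization and with the trend removed.

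The activator E2f1 had 19.2, 19.3 and 17.7 FPKM in treated libraries, against 11.7, 9.66 and 15.1 FPKM in controls, a 1.54-fold difference without overlap (log2 fold change 0.60 ± 0.17 SE, limma adjusted p = 0.023). Its call ended without control 1 (0.0725) and without any 1 treated library (0.0622 to 0.0813, limma adjusted p). The activator E2f2 overlapped at 2.05 to 2.32 FPKM in treated and 1.94 to 3.72 FPKM in control cells. E2f7, the repressor closest to E2f8, was not called, with 1.75, 1.62 and 1.68 FPKM in treated and 1.00, 1.55 and 1.30 FPKM in control libraries (limma adjusted p = 0.119, and 0.040 without control 2). Of the 7 tested E2F and partner genes outside the 43 genes, 2 were higher and 2 were lower, beside 27.9% and 28.3% of all tested genes. With quantile normalization 1 was higher and 1 lower, beside 27.2% and 24.5% of all genes. With the trend removed 1 was higher and 2 were lower, beside 21.0% and 21.7%. Tfdp1, the dimer partner of the E2F activators, averaged 21.6 ± 1.02 FPKM in treated and 11.2 ± 2.19 FPKM in control cells (SD, n = 3 each, log2 fold change 0.90, limma adjusted p = 0.00413), and E2f5, a repressive family member, 5.11 ± 0.288 FPKM in treated and 7.71 ± 0.351 FPKM in control cells (SD, n = 3 each, log2 fold change -0.51, limma adjusted p = 0.00584, turning to 0.35 with equal totals and 0.13 by library size only).

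**Figure D3:**
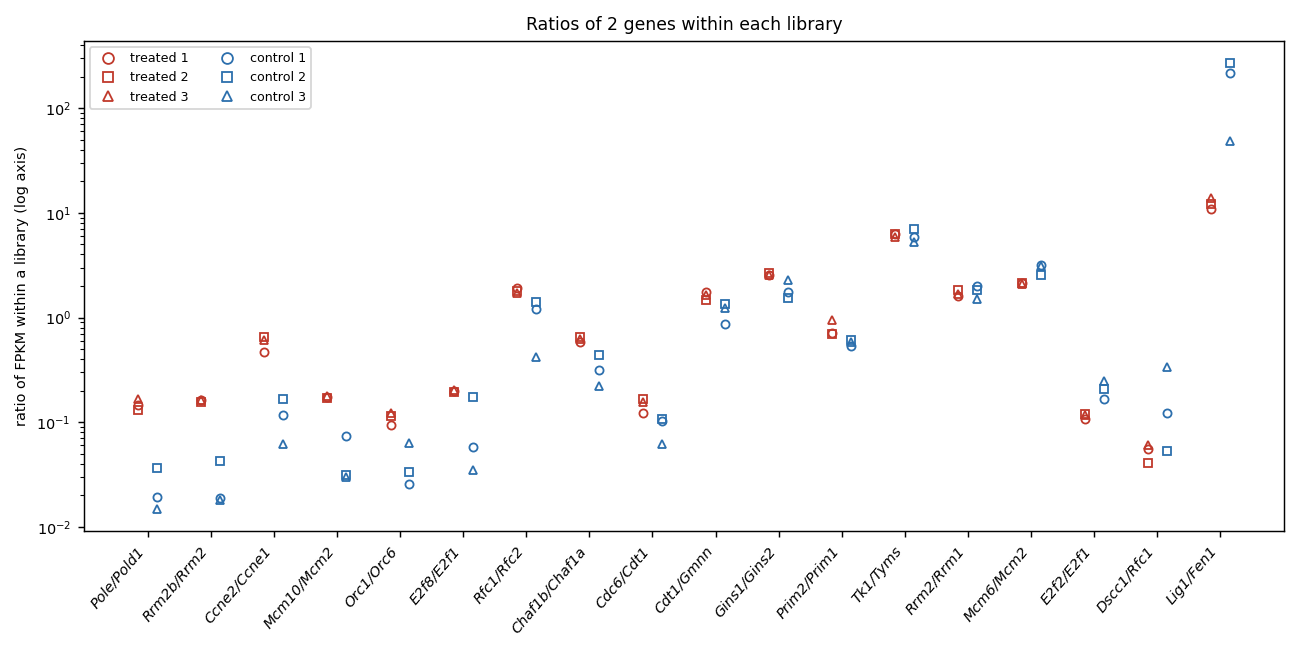
Ratio of the FPKM of 2 genes within each library, on a log axis, with treated libraries in red and to the left of control libraries in blue for each pair. Treated and control libraries do not overlap for 15 of the 18 pairs, beside 66.2% of all pairs of tested genes. Among the 15 are Pole to Pold1, Rrm2b to Rrm2, Ccne2 to Ccne1 and Lig1 to Fen1. Fen1 rests on 11 and 7 reads in controls 1 and 2.

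Of the chromatin genes, the subunits of the CAF-1 chaperone, which deposits new histones at the fork, differed in how they behaved. Chaf1b (chr16:93883901-93906115) had 3.13, 3.25 and 3.11 FPKM in treated libraries, against 1.19, 1.28 and 1.45 FPKM in controls. Both groups were narrow and far apart, 2.42-fold between the means (log2 fold change 0.85 ± 0.09 SE, limma adjusted p = 0.000764). Chaf1a had 5.01 to 5.31 FPKM in treated and 2.91 to 6.59 FPKM in control cells, overlapped and was not called (limma adjusted p = 0.457, and 0.0098 without control 3), and 52.5% of its exon bases lie in exons of Ubxn6 on the other strand. The ratio of Chaf1b to Chaf1a was 0.590, 0.649 and 0.620 in treated and 0.313, 0.440 and 0.220 in control libraries.

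Uhrf1, which recruits the maintenance methyltransferase to new DNA, had 21.7, 22.4 and 21.9 FPKM in treated libraries, against 28.8, 29.9 and 29.9 FPKM in controls. Both groups varied little and did not overlap (log2 fold change -0.41 ± 0.09 SE, limma adjusted p = 0.0113), but the difference turned to 0.046 with quantile normalization, 0.31 by library size only and 0.55 with equal totals. Without any 1 treated library its adjusted p was 0.0574 to 0.0635 by limma. Slbp, which binds the stem-loop of histone mRNA, had 5.66, 5.43 and 5.81 FPKM in treated libraries, against 8.25, 6.74 and 8.93 FPKM in controls (log2 fold change -0.43 ± 0.13 SE, limma adjusted p = 0.0274), a difference that turned to 0.44 with equal totals and 0.22 by library size only. Without control 1 or any 1 treated library its adjusted p was between 0.0816 and 0.106 in the same test. Of 6 further tested chromatin genes, 1 was called, beside 56.1% of all tested genes. The called gene was the histone chaperone Rbbp4. It averaged 30.1 ± 1.75 FPKM in treated and 37.5 ± 1.53 FPKM in control cells (SD, n = 3 each). Its log2 fold change was -0.31 (limma adjusted p = 0.0457). Its difference turned to 0.26 with quantile normalization, 0.42 by library size only and 0.67 with equal totals, and the call ended without control 1 (limma adjusted p = 0.114) or any 1 treated library (0.107 to 0.184).

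The calls sorted by the level of the genes. With all tested genes cut into 10 equal bands by mean level, 8 of the 10 higher genes were in the lower 5 bands, and E2f1 and Pcna were the exceptions. Of the 6 lower genes, 5 were in the upper 5 bands, with Gins2 the exception. The same order ran through all tested genes, whose median log2 fold change was 0.52 in the lowest band and -0.93 in the highest. Removing a trend on GC content, exon length and level from the fold changes left 7 higher and 7 lower genes among the 42. Of all genes with a GC content, 21.0% were higher and 21.7% lower. The higher ones of the 42 were Gins3, Mcm10, Pole, E2f8, Chaf1b, Pcna and E2f1. The lower ones were Gins2, Lig1, Ccne1 and Slbp, with Prim1, Tyms and Rfc2, which were not called before the removal. Cdt1 and Uhrf1 were no longer called.

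**Figure D4:**
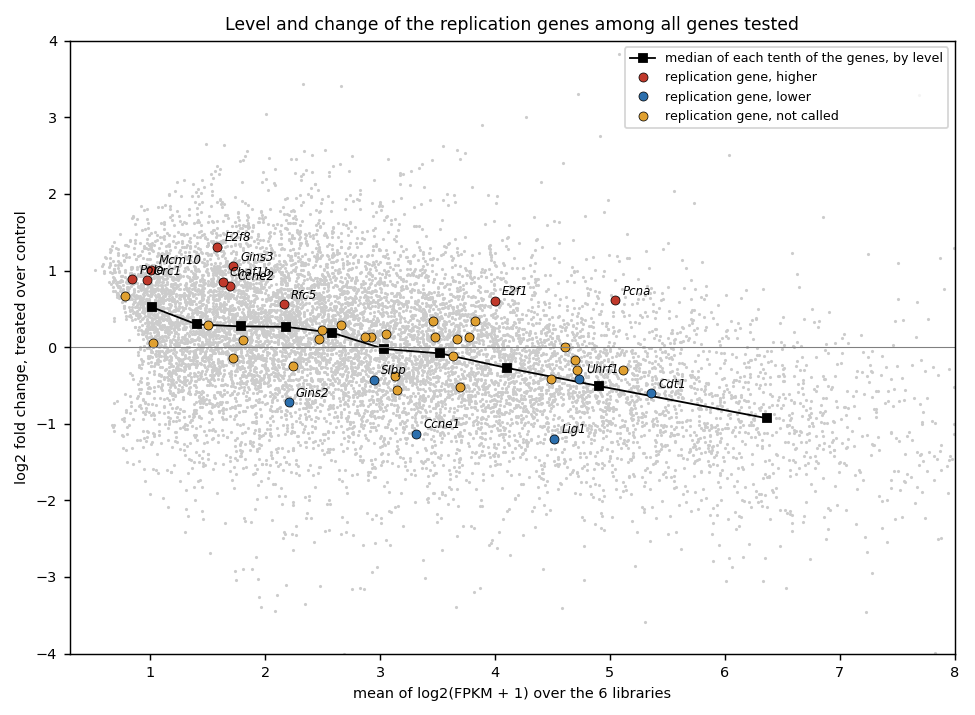
Log2 fold change, treated over control, against the mean of log2(FPKM + 1) over the 6 libraries, for all 11118 tested genes in light grey and the 42 replication genes as larger points coloured by call. The cloud slopes downward to the right, and most red points lie at the left and most blue points at the right, though Cdt1, Gins2, Uhrf1 and Slbp, blue here, lie above 0 under at least 1 other scaling.

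Scaling by column total or by library size moved the genes upward together. Made equal in column total, the libraries gave a median log2 fold change of 0.80 over all tested genes and 0.98 over the 42, and scaled by library size only, 0.59 and 0.77. Equal totals gave 35 higher and 0 lower genes of the 42, beside 64.6% higher and 6.62% lower of all genes, and library size only gave 29 and 0, beside 54.3% and 10.3%. Quantile normalization gave 11 higher and 7 lower, beside 27.2% and 24.5%. With a minimum of 5 FPKM, 26 of the genes were tested, of which 2 were higher and 6 lower, beside 20.7% and 37.6%. Set against the median of all tested genes, each of the 10 higher genes was above it under the deposited scale and the other 4 scales tried, by no less than 0.28 (Pole with the trend removed). Of the 6 lower genes, Gins2, Lig1, Ccne1 and Slbp were below that median under all 5, while Cdt1 was not below it with quantile normalization or the trend removed, nor Uhrf1 with quantile normalization.

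**Figure D5:**
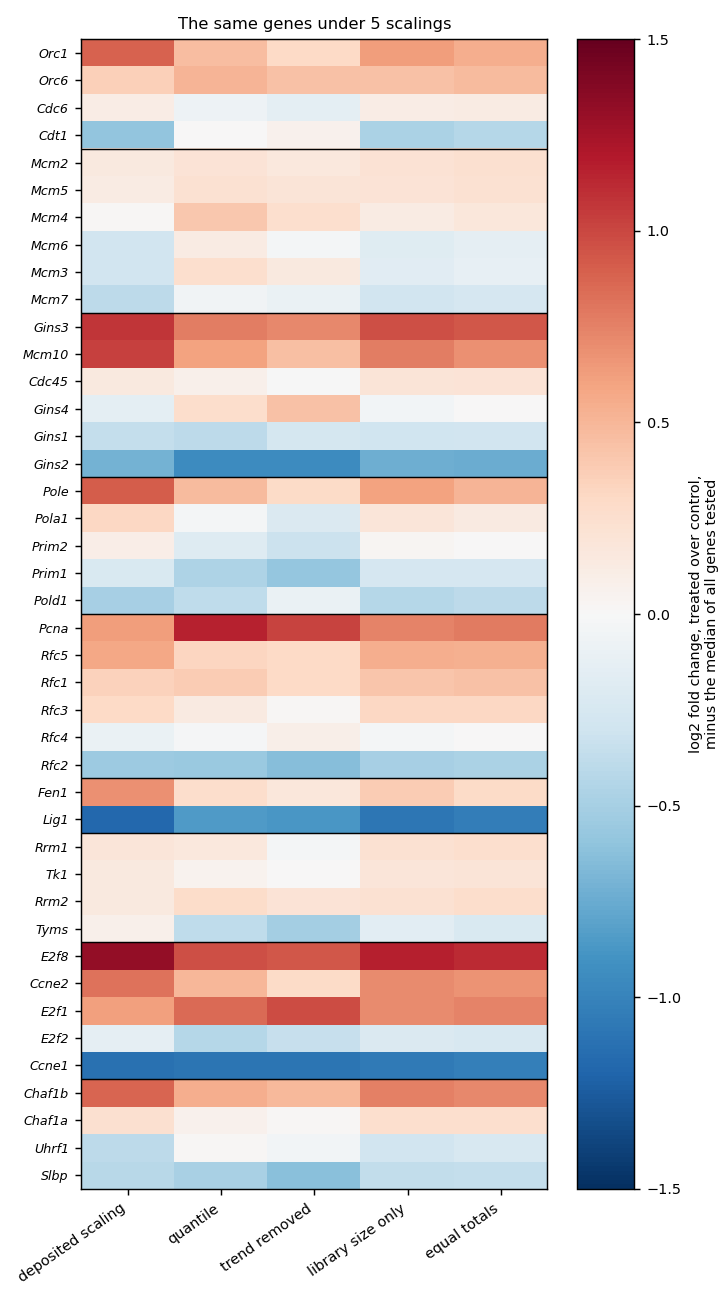
Log2 fold change of the 42 tested genes, treated over control, minus the median of all tested genes, under the deposited scaling and 4 other scalings, with red above and blue below that median and black lines between roles. Gins3, Mcm10, Pole, Pcna, E2f1, E2f8 and Chaf1b are red and Gins2, Lig1 and Ccne1 blue in every column, while Cdt1 and Uhrf1 are near white with quantile normalization.

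Ratios of 2 genes within a library do not depend on a scaling by 1 factor per library, such as equal totals or library size, but quantile normalization and removal of the trend do change differences between genes. Of 18 pairs listed by function, treated and control libraries did not overlap for 15 (12 above, 3 below), beside 66.2% of all pairs of tested genes. With 3 libraries a side the smallest p of the exact two-sided permutation test is 0.1, adjusted to 0.12 over the 18 pairs, so that none could pass. Mcm10 to Mcm2 was 0.176, 0.169 and 0.179 in treated and 0.0734, 0.0310 and 0.0301 in control libraries. Lig1 to Fen1, the pair that completes an Okazaki fragment, was 10.8, 12.1 and 13.8 in treated and 218, 269 and 48.0 in control libraries. Such a ratio does not say which of its genes differed, and the Fen1 values behind the last one rest on few reads in controls 1 and 2.

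The treated libraries were more alike than the controls. The coefficient of variation over the 42 genes had a median of 4.67% in treated and 19.8% in control cells, and it was larger in controls for 38 of 42 genes, beside 90.9% of all tested genes. Control 3 was the highest of the controls for 25 genes, among them Mcm3, Mcm7, Pold1, Gins4, Lig1 and Ccne1, and the lowest for 12, among them Pcna and Orc6. Over all tested genes it was the highest control for 43.9% and the lowest for 42.5%. The wide intervals of Gins4, Pold1 and Mcm7 belong to genes whose value in control 3 was far above the other controls.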

How the data were processed

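RNA was measured in 4T1 cells, in 3 treated and 3 control samples, with groups and replicate numbers from the labels. Per the labels' protocols, 3 µg of RNA a sample was selected on poly-T beads, copied with random hexamers and read in pairs of 150 bp. Aligner, counter, genome build, annotation and strandedness were not given in the sources used here. Per gene, the authors deposited FPKM, per the file headers, for 56748 identifiers.

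Low values were whole multiples of 1 read's worth, which gave the depth: 92.5% to 93.4% of them came out whole within 0.02 of a read. The deposited columns had equal median-of-ratios factors and unequal totals, so they had been scaled between libraries. Symbols, positions and exon lengths were looked up in GENCODE M21 on GRCm38.

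Genes reaching 1 FPKM in 3 or more libraries were tested with limma 3.58.1 in R 4.3.3 on log2(FPKM + 1), with group as the only term, a trended prior variance and Benjamini-Hochberg adjustment over all tested genes, and called under 0.05. This scale understates changes of low genes. Intervals are unadjusted. The count model held in reserve was not used, since the values are not counts. The procedure was also run on simulated data.

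The members and the lists were chosen with earlier results of these data known. All 43 genes are named, and of 56 other replication genes the called gene with the smallest p per role and direction, with Gmnn, E2f7 and Rrm2b. Genes listed only to complete a count were named after their values were seen. Pseudocounts, filters, scalings, variance models, a replicate block and single omitted libraries were tried as alternatives. One listed cell type marker is not reported here.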

Additional observations from a re-analysis of the deposited data

How the results depend on the processing

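With log2(FPKM + 0.1) or log2(FPKM + 0.01) every called gene of the 42 kept its call and no other gained one. Calls of Gins3, Mcm10, Pole, E2f8 and Chaf1b held under every alternative that tested them. Under equal column totals 7180 of all genes were higher and 736 lower, with 35 and 0 of the 42 genes and 43 and 0 of the 54 other replication genes. By library size only these counts were 6034 and 1150, 29 and 0, and 39 and 2. A minimum of 5 FPKM left 1385 genes higher and 2516 lower, with 2 and 6 of the 26 replication genes still tested and 3 and 9 of the others. The other replication genes gave 10 higher and 5 lower with quantile normalization and 8 and 5 with the trend removed. Leaving out 1 library gave 8 to 14 higher and 3 to 9 lower of the 42, 12 to 21 and 5 to 14 of the others, and 2279 to 3634 and 2140 to 3778 of all genes.

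Signs turned, with a call in at least 1 of the fits, under equal totals for Cdt1 (0.37), Mcm3 (0.67), Mcm6 (0.66), Gins1 (0.52), Gins2 (0.058), Prim1 (0.55), Rfc4 (0.80), E2f2 (0.55), Uhrf1 (0.55) and Slbp (0.44). By library size only they turned for Cdt1 (0.13), Mcm6 (0.42), Prim1 (0.35), Rfc4 (0.57), Uhrf1 (0.31) and Slbp (0.22), with quantile normalization for Cdt1 (0.032), Uhrf1 (0.046) and Tyms (-0.35), and with the trend removed for Cdt1 (0.059) and Tyms (-0.52). Both scalings by totals shift every gene upward by construction; the cause was not tested for the others. With the replicate number as a block, 8 of the 42 were higher and 3 lower, beside 23.5% and 24.0% of all genes tested. The samples share only a number. After the group mean of each gene was subtracted, the deviations of same-numbered libraries correlated at -0.14 to -0.05 (Pearson r). On these deviations, 0 of 3 treated libraries correlated best with their own number. Depth limits Orc1, Gins3, Mcm10, Pole, Fen1, E2f8 and Dscc1, which had under 100 reads in some library. Control 3 had 86 reads for Gins3, 53 for Mcm10 and 67 for E2f8, and control 1 had 85 for Pole. Read numbers bear on counting error only, as amplified reads are not separate molecules.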

Other observations

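Exons of 17 of the 43 genes overlap exons of another annotated gene, and for 9 of them the overlap takes at least 10% of the exon bases. Wsb2, opposite Rfc5, had 20.2, 20.1 and 19.0 FPKM in treated and 27.0, 18.8 and 44.4 FPKM in control libraries, so that the groups overlapped. Eif4a2, opposite Rfc4, had 62.6, 63.0 and 68.9 FPKM in treated and 175, 144 and 145 FPKM in control libraries, without overlap.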
